A study of Mus musculus with 6 samples.

Results

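The S100 proteins and annexins described here are 10 calcium-binding protein genes, chosen by symbol: S100a1, S100a4, S100a6, S100a8, S100a9, S100a10, S100a11, Anxa1, Anxa2 and Anxa5. All 10 were found among the 38293 genes of the count table, and all 10 passed the filter on low counts that left 14746 genes for testing. S100a1, which is made by cardiomyocytes, was kept apart from 7 genes called stromal here (S100a4, S100a6, S100a10, S100a11, Anxa1, Anxa2 and Anxa5). S100a8 and S100a9, which are made by myeloid cells, were also kept apart. This grouping was part of the choice of genes, and the cells of origin were not tested. Heart tissue came from adult mice of a backcrossed C57BL/6J strain, 14 days after a lasting occlusion of the left anterior descending coronary artery had caused a myocardial infarction (MI). The 3 control libraries are from mice with floxed Zeb2 alleles and no Cre (Zeb2 fl/fl, named WT in the labels; fl/fl hearts below). The 3 Zeb2 cKO libraries (cKO hearts below) are from mice with the same alleles and a Cre recombinase under the murine Myh6 promoter, which is active in cardiomyocytes. No group carried Cre alone, so the deletion and the presence of Cre cannot be told apart. The tissue holds all cell types of the wall, and the labels name the border of the infarct where the study's methods name the remote zone.

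S100 proteins are small cytosolic proteins with paired EF-hand loops that change shape when calcium binds, and most of them then dock onto partner proteins. S100A1 is the cardiac family member and binds the ryanodine receptor, the sarcoplasmic calcium pump and titin in cardiomyocytes. S100A8 and S100A9 form calprotectin, which neutrophils and monocytes release as an alarm signal in early infarct inflammation. Annexins bind phosphatidylserine and other acidic lipids in a calcium-dependent way. ANXA2 forms a complex with an S100A10 dimer at the plasma membrane that takes part in membrane repair and plasmin formation. ANXA1 limits leukocyte entry through formyl peptide receptors, and ANXA5 coats exposed phosphatidylserine on dying cells.

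Total counts per library were between 37288174 and 51136331, of which 14301225 to 19024394 lay outside the mitochondrially encoded genes. Levels are given as CPM, the counts per 1000000 counts of the library size after edgeR's TMM scaling. Levels of different genes are ranked only as RPKM, that is CPM per kilobase of annotated exon. Log2 differences between genes or gene lists are in CPM, and serve only to compare libraries and groups. The log2 fold change is Zeb2 cKO over Zeb2 fl/fl from edgeR's quasi-likelihood test, with its standard error and a Benjamini-Hochberg adjusted p over all tested genes. For Zeb2 itself, fl/fl replicates 1, 2 and 3 gave 61.3, 116.0 and 71.9 CPM and cKO replicates 1, 2 and 3 gave 59.5, 72.5 and 66.4 CPM, so the groups overlapped (log2 fold change -0.33 ± 0.25, standard error, and -0.0058 ± 0.12 without Zeb2 fl/fl replicate 2). Zeb2 is also expressed in other cardiac cells, which the Cre leaves untouched, and their share of these counts was not tested. Zeb2 fl/fl replicate 2 stood apart from the other 5 libraries. It was the highest library for 35.2% and the lowest for 34.7% of all tested genes, so the fitted changes of the 10 genes are given with and without it.

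Of the 10 genes, 0 had an adjusted p under 0.05, against 0% of the 14746 tested genes, and their adjusted p was 0.957 in each case. An unadjusted p under 0.05 was also reached by 0 of the 10, against 1.9% (280) of all tested genes, and DESeq2 called 0 of the 10, against 0.0136% (2 genes) of all. The fitted change was below -0.2 in 9 of the 10 genes, against 22.6% of all tested genes, and above 0.2 in S100a1 alone, against 15.9%. Without Zeb2 fl/fl replicate 2 it was above 0 in 6 and below 0 in 4 of the 10, where 49.1% of all genes were below 0, and again 0 had an adjusted or an unadjusted p under 0.05, against 0% and 2.62% of 14966 tested genes. The smallest two-sided p that an exact permutation test of 3 against 3 libraries can reach is 0.1.

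**Figure D1:**
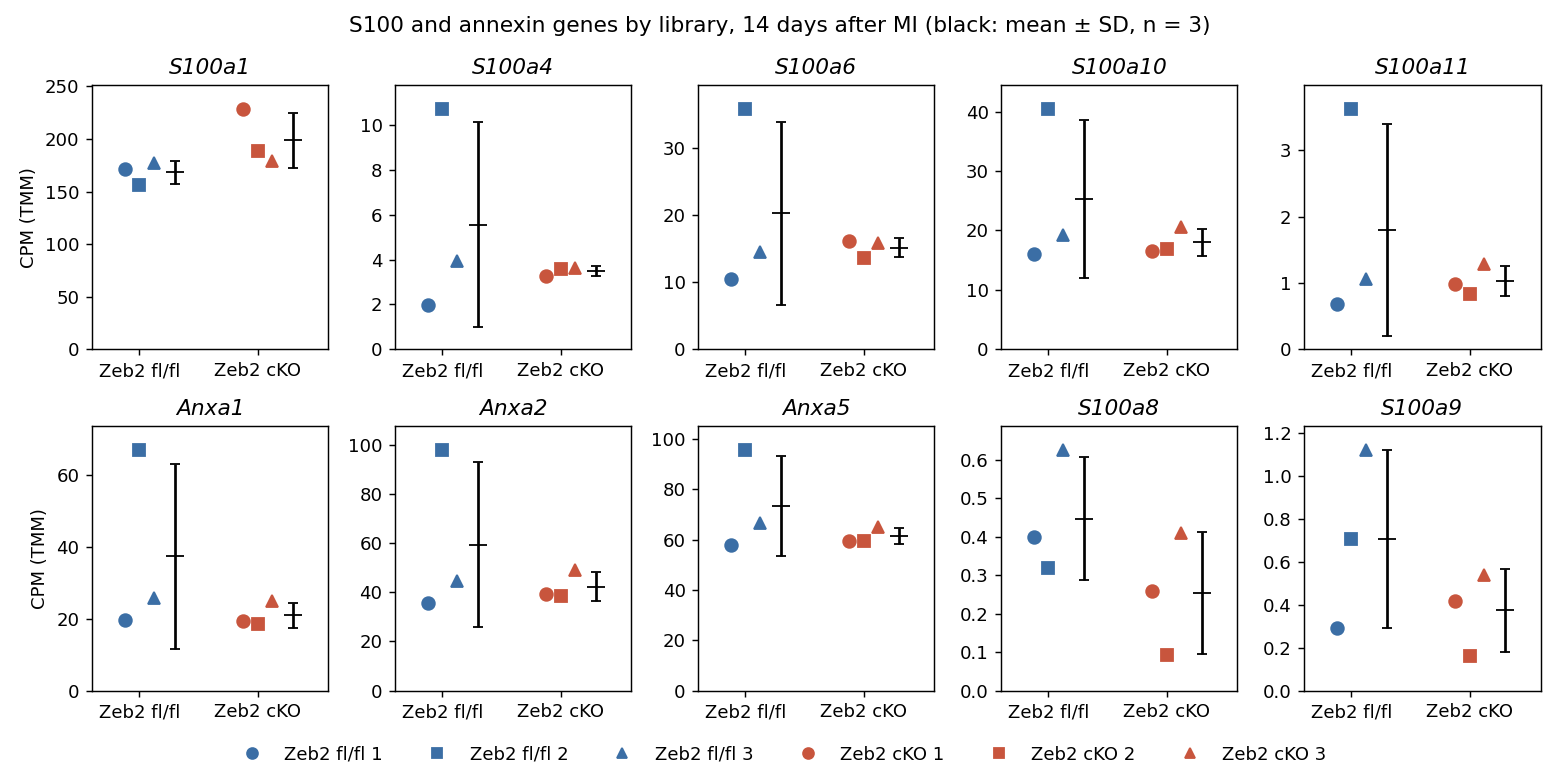
CPM of the 10 genes in each library, with Zeb2 fl/fl hearts in blue, Zeb2 cKO hearts in red, symbols for the replicate number and the mean ± SD (n = 3) in black. Zeb2 fl/fl replicate 2 (blue square) is the top point in all 7 stromal panels, whereas it is the lowest point for S100a1 and lies within the others for S100a8 and S100a9.

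S100a1 (ENSMUSG00000044080, minus strand of chr3:90511034-90514392, GRCm38) was by far the most abundant gene of the set. It was at 171, 156 and 177 CPM in fl/fl hearts (168 ± 10.6, SD, n = 3) and at 228, 188 and 179 CPM in cKO hearts (199 ± 26.2, SD, n = 3). All 3 Zeb2 cKO libraries thus lay above all 3 Zeb2 fl/fl libraries, but the gap between the nearest libraries was small, and 3.39% of all tested genes were separated in this direction. The other 9 genes overlapped between the groups, where 2.97% of all tested genes were separated with the cKO hearts lower. For S100a1 the log2 fold change was 0.24 ± 0.15 (edgeR, Benjamini-Hochberg adjusted p = 0.957, exact permutation p = 0.1, two-sided). Without Zeb2 fl/fl replicate 2 it was 0.19 ± 0.13, the groups still did not overlap, and 8.07% of all tested genes were separated in this direction. Without Zeb2 cKO replicate 1, its highest library, the fold change was 0.13 ± 0.17. The groups remained apart when counts were scaled to the library totals, at 158, 184 and 157 against 224, 189 and 190 counts per 1000000. They also remained apart when scaled to the counts outside the mitochondrially encoded genes, at 450, 466 and 475 against 616, 523 and 506.

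Other cardiomyocyte genes were set beside S100a1, using 15 markers that include Myh6, the main adult myosin heavy chain, and the S100A1 partners Ryr2, Atp2a2 and Ttn. In Zeb2 fl/fl replicate 2 the markers summed to 39038 CPM, below the 62440 to 76652 CPM of the other 5 libraries, and 14 of the 15 had their lowest value there. Relative to the mean of the other libraries the markers were at 0.369 to 0.833 times there, with a median of 0.539, and Myh6 was at 2766 CPM, or 0.375 times. S100a1 was also lowest there on the TMM scale, at 0.828 times, which lies within the range of the markers near its upper end, and scaled to library totals it was the highest of the Zeb2 fl/fl libraries. The log2 difference between S100a1 and the mean of the markers was therefore -2.71 in Zeb2 fl/fl replicate 2, above -3.67 and -3.42 in the other Zeb2 fl/fl libraries and -3.22, -3.40 and -3.21 in cKO hearts. The group means of this difference lay -0.011 apart (exact permutation test, two-sided p = 1), 0.27 apart without Zeb2 fl/fl replicate 2 and -0.21 apart without Zeb2 fl/fl replicate 1. In bulk tissue, fewer cells of a type and less RNA per cell cannot be told apart.

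S100a1 lies head to head with S100a13, a family member linked to the export of growth factors without a signal peptide, with 42 bases between their annotated ends. S100a13 was at 8.28, 11.7 and 9.24 CPM in fl/fl hearts and at 10.8, 9.05 and 9.77 CPM in cKO hearts, a log2 fold change of 0.016 ± 0.16. Unlike S100a1, it was highest in Zeb2 fl/fl replicate 2. Upstream of the RefSeq start of S100a1 (GRCm38.p6) the letters CACCT, the core of the sequences that ZEB2 binds, occur once on each strand, at positions -142 and -117 counted from that start. The stretch that holds both, on the minus strand at chr3:90514443-90514472, is shown for that reason, with the matches in capitals. This stretch lies inside S100a13 as annotated, and the match at -117 is in an annotated exon.
S100a1: CACCTacttcccgctaggctcagggAGGTG
CACCT on either strand occurs within 250 bases upstream of 46.0% of 32851 RefSeq starts and of 4 of the 9 genes of the set with an entry (S100a1, S100a9, Anxa1 and Anxa5). A match of letters is a description and not a bound site.

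The 7 stromal genes shared a different pattern. In all 7 the highest library was Zeb2 fl/fl replicate 2, at 1.55 times (Anxa5) to 3.73 times (S100a11) the mean of the other 5 libraries. That library was highest for 35.2% of all tested genes, and over 2-fold above the mean of the others for 9.33% of them. Among the other 5 libraries Zeb2 fl/fl replicate 1 was the lowest for 6 of the 7, Anxa1 being the exception, and the groups overlapped in all 7 genes.

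S100a4, also known as fibroblast-specific protein and found in both fibroblasts and macrophages, was at 1.99, 10.7 and 3.96 CPM in fl/fl hearts and at 3.26, 3.59 and 3.63 CPM in cKO hearts. The Zeb2 cKO values thus lay between those of Zeb2 fl/fl replicates 1 and 3. The log2 fold change was -0.67 ± 0.55 with all 6 libraries and 0.23 ± 0.27 without Zeb2 fl/fl replicate 2. S100a6 (calcyclin), first described in proliferating cells, was at 10.5, 35.8 and 14.5 CPM in fl/fl hearts and at 16.1, 13.6 and 15.8 CPM in cKO hearts. Its log2 fold change was -0.42 ± 0.43, and 0.29 ± 0.16 without Zeb2 fl/fl replicate 2, the largest positive value among the 7 in that comparison (edgeR, unadjusted p = 0.112).

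S100a11, whose protein takes part in membrane repair and binds ANXA1, was the least abundant of the 7. It was at 0.690, 3.62 and 1.07 CPM in fl/fl hearts, from 26, 159 and 41 counts. In the Zeb2 cKO libraries it was at 0.979, 0.829 and 1.28 CPM, from 49, 36 and 69 counts. The log2 fold change was -0.80 ± 0.60, and 0.24 ± 0.31 without Zeb2 fl/fl replicate 2. Of its longest transcript, 58.1% lies in stretches nearly identical to Gm12854 or Gm7665 (at least 75 bases, 95% identity), which makes its count uncertain. The copy Gm12854 had 7, 62 and 13 counts in fl/fl hearts and 11, 14 and 19 counts in cKO hearts, again highest in Zeb2 fl/fl replicate 2. For S100a4 the shared part was 60.6%, with a copy that has no row in the count table.

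Anxa1 was at 19.6, 66.8 and 25.6 CPM in fl/fl hearts (37.3 ± 25.7, SD, n = 3) and at 19.5, 18.5 and 24.9 CPM in cKO hearts (21.0 ± 3.47, SD, n = 3). Zeb2 cKO replicates 1 and 2 lay just below the lowest Zeb2 fl/fl library, and replicate 3 lay within the Zeb2 fl/fl range. Its log2 fold change of -0.83 ± 0.45 was the most negative of the 7 (edgeR, unadjusted p = 0.106 and adjusted p = 0.957, exact permutation p = 0.2), and it was -0.10 ± 0.17 without Zeb2 fl/fl replicate 2. Anxa5 was at 57.7, 95.5 and 66.7 CPM in fl/fl hearts and at 59.5, 59.3 and 65.1 CPM in cKO hearts, and its highest library stood least above the others in ratio. Its log2 fold change was -0.26 ± 0.20 with all libraries and -0.018 ± 0.11 without Zeb2 fl/fl replicate 2.

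The median log2 fold change of the 7 stromal genes was -0.49, beside -0.0069 for all tested genes. Without Zeb2 fl/fl replicate 2 it was 0.081, beside 0.0026 for all tested genes, with 5 of the 7 above 0 and 2 below.

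**Figure D2:**
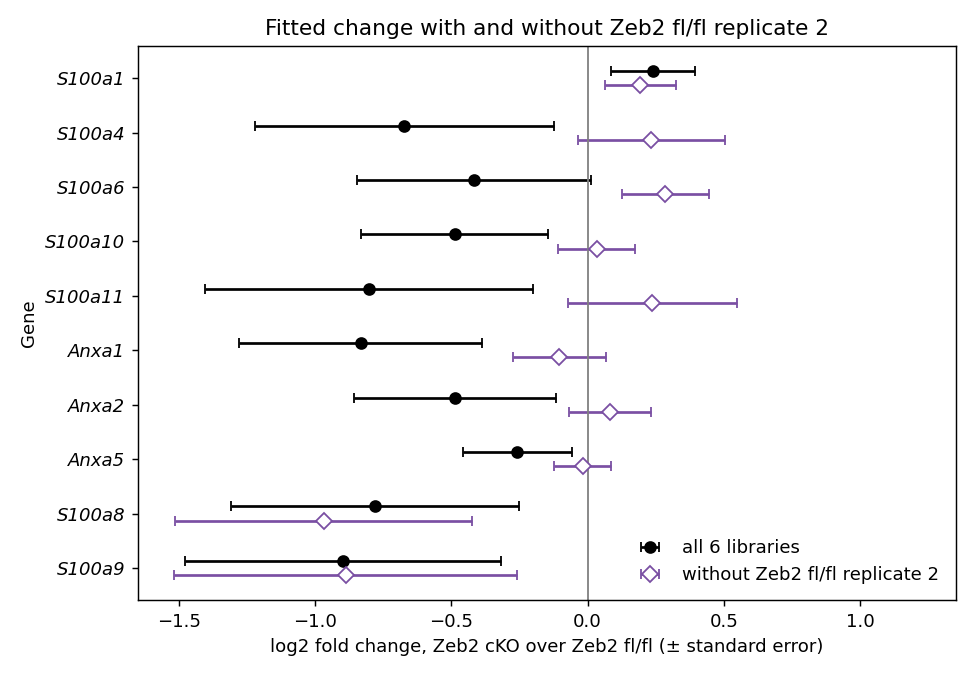
Log2 fold change (Zeb2 cKO over Zeb2 fl/fl) with its standard error for each of the 10 genes, from all 6 libraries (black circles) and without Zeb2 fl/fl replicate 2 (open diamonds). The stromal genes move from between -0.83 and -0.26 to between -0.10 and 0.29, while S100a1, S100a8 and S100a9 stay on their side of 0.

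Anxa2 and S100a10, the partners of the membrane complex, followed each other most closely. Anxa2 (ENSMUSG00000032231, plus strand of chr9:69453620-69491795) was at 35.6, 97.7 and 44.6 CPM in fl/fl hearts and at 39.2, 38.5 and 49.2 CPM in cKO hearts. S100a10 (ENSMUSG00000041959, plus strand of chr3:93555080-93564643) was at 16.1, 40.4 and 19.3 CPM in fl/fl hearts and at 16.5, 16.9 and 20.6 CPM in cKO hearts. Both were highest in Zeb2 fl/fl replicate 2 and, among the other 5 libraries, highest in Zeb2 cKO replicate 3. Each had a log2 fold change of -0.49, with standard errors of 0.37 for Anxa2 and 0.34 for S100a10, and these became 0.081 ± 0.15 and 0.033 ± 0.14 without Zeb2 fl/fl replicate 2.

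The log2 difference in CPM between Anxa2 and S100a10 was 1.15, 1.27 and 1.21 in fl/fl hearts (1.21 ± 0.063, SD, n = 3) and 1.24, 1.19 and 1.25 in cKO hearts (1.23 ± 0.036, SD, n = 3). It differed between the groups by 0.018, less than the spread between replicates (exact permutation test, two-sided p = 0.7). Over all 6 libraries the ratio stayed within 0.13 on the log2 scale, although each gene varied over 2-fold. Likeness of pattern was measured as the root mean square distance between 2 genes' log2 CPM over the 6 libraries, each gene centred on its own mean. Of 5891 other genes with a mean of at least 10 CPM, S100a10 was the nearest to Anxa2, at a distance of 0.043, followed by Sh3d19 at 0.052 and Eef1a1 at 0.053. To the other stromal genes of the set Anxa2 had distances from 0.15 (S100a6) to 0.30 (S100a4), and to S100a1 it had 0.60. All 6 libraries enter this measure, and Zeb2 fl/fl replicate 2 weighs most in it.

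**Figure D3:**
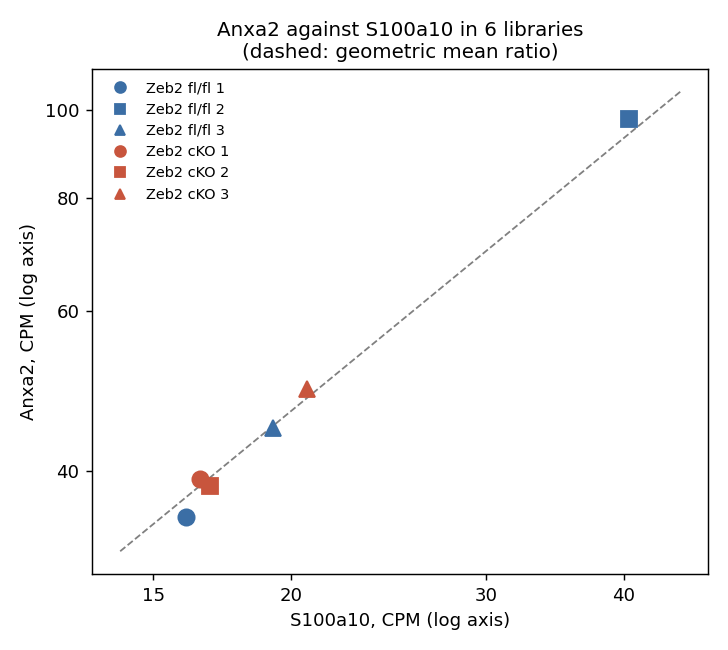
Anxa2 against S100a10 in CPM on log axes, 1 point per library, with Zeb2 fl/fl in blue and Zeb2 cKO in red. The dashed line marks the geometric mean ratio, and all 6 libraries lie close to it, from Zeb2 fl/fl replicate 1 at the lower left (16.1 and 35.6 CPM) to Zeb2 fl/fl replicate 2 at the upper right (40.4 and 97.7 CPM).

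Upstream sequence is shown for the 2 stromal genes of the set that hold TGAGTCA, the core letters of AP-1 sites, in RefSeq windows of 250 bases on GRCm38.p6. The letters occur on either strand in 4.46% of 32851 such windows and in those of Anxa2 and S100a11 among the 9 genes with an entry. Bases inside annotated exons were left out, and capitals mark the matches, at position -95 for Anxa2 and at -136 and -38 for S100a11. The stretches are the plus strand of chr9:69453433-69453619 and the plus strand of chr3:93520246-93520487.
Anxa2: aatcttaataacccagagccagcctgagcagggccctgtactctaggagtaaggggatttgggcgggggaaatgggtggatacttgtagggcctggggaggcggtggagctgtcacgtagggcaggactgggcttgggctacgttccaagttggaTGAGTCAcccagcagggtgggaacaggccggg
S100a11: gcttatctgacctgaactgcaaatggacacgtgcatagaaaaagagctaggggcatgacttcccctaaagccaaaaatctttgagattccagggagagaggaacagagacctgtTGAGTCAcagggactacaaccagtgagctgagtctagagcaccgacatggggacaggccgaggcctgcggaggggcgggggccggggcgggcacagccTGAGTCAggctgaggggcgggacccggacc
The motif was chosen after the windows had been searched.

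Fibroblast and macrophage markers moved with the 7 genes. When each gene was centred on its own 6-library mean, the mean log2 CPM of the stromal set was -0.53, 1.15 and -0.070 in fl/fl hearts and -0.24, -0.30 and -0.0086 in cKO hearts. The 12 fibroblast markers were at 1.54 in Zeb2 fl/fl replicate 2 and between -0.48 and -0.11 in the others, and all 12 were highest in that library. Col3a1, a fibrillar collagen, was at 4869.6 CPM there, 6.34 times the mean of the other libraries and the highest of the 12 ratios, which ran from 1.81 with a median of 3.60. The 12 macrophage markers were at 1.15 in Zeb2 fl/fl replicate 2 and between -0.47 and -0.049 in the others. Of these, 11 were highest in that library, and Cd163, the haemoglobin scavenger receptor, was lowest there at 1.62 CPM against 5.83 to 8.34 CPM. In summed CPM, the fibroblast markers were at 9996 in that library against 1809 to 2464 in the others, and the macrophage markers at 921 against 239 to 329. Their part in the values of the 7 genes was not tested.

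Relative to the fibroblast markers, the 7 genes were at -2.49, -2.83 and -2.35 on the log2 scale in fl/fl hearts and at -2.23, -2.39 and -2.34 in cKO hearts. The difference between the groups was 0.24 (exact permutation test, two-sided p = 0.2) and 0.10 without Zeb2 fl/fl replicate 2. Relative to the macrophage markers they were at -0.18, -0.12 and -0.14 in fl/fl hearts and at -0.044, -0.28 and 0.035 in cKO hearts, a difference of 0.052 (exact permutation test, two-sided p = 0.6). Over the 6 libraries these differences spanned 0.31 for the macrophage and 0.60 for the fibroblast markers.

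**Figure D4:**
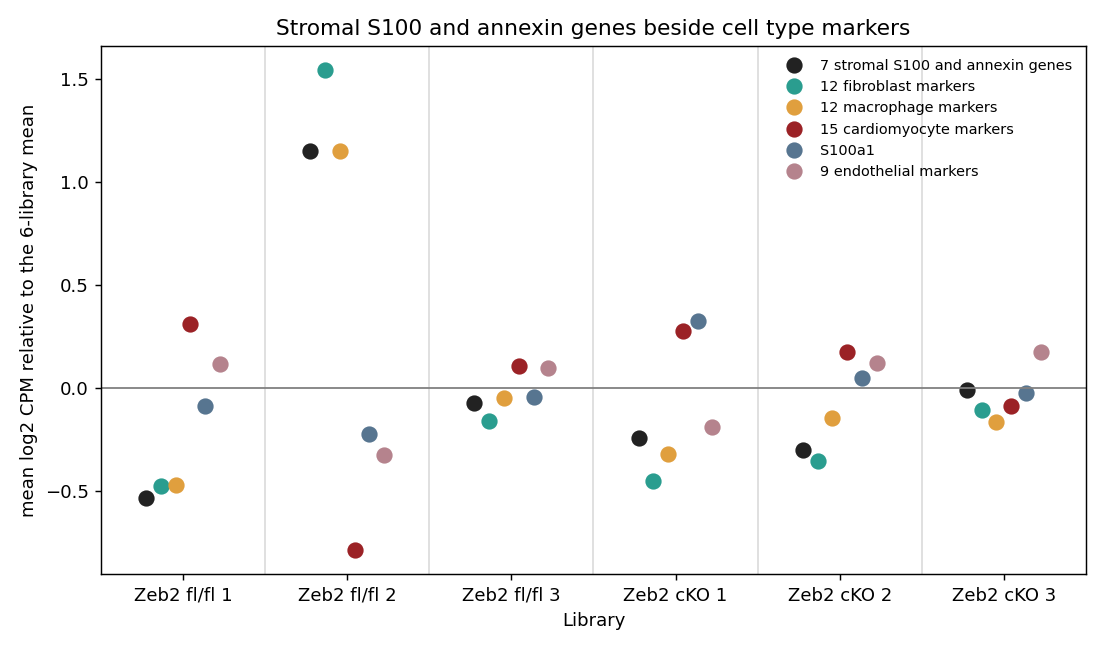
Mean log2 CPM of each gene list in each library, relative to its mean over the 6 libraries. In Zeb2 fl/fl replicate 2 the 7 stromal S100 and annexin genes (1.15) stand with the fibroblast (1.54) and macrophage markers (1.15), opposite to the cardiomyocyte markers (-0.79), while S100a1 (-0.22) lies near the endothelial markers (-0.32).

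S100a8 and S100a9, the subunits of calprotectin, were near the lower end of detection. S100a8 (ENSMUSG00000056054, plus strand of chr3:90668978-90670035) had 15, 14 and 24 counts in fl/fl hearts and 13, 4 and 22 counts in cKO hearts, or 0.398, 0.319 and 0.625 against 0.260, 0.0921 and 0.409 CPM. S100a9 (ENSMUSG00000056071, minus strand of chr3:90692632-90695721) had 11, 31 and 43 counts against 21, 7 and 29 counts, or 0.292, 0.706 and 1.12 against 0.419, 0.161 and 0.539 CPM. The highest library was Zeb2 fl/fl replicate 3 and the lowest Zeb2 cKO replicate 2 for both genes, and the groups overlapped. At 4 counts the exact Poisson 95% interval for counting error alone runs from 1.09 to 10.2 counts.

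The log2 fold change was -0.78 ± 0.53 for S100a8 and -0.90 ± 0.58 for S100a9, with exact permutation p-values of 0.3 and 0.4. Without Zeb2 fl/fl replicate 2 these were -0.97 ± 0.54 and -0.89 ± 0.63, so unlike the stromal genes they kept their size. Without Zeb2 cKO replicate 2, the value for S100a8 was -0.40, and without Zeb2 fl/fl replicate 3 that for S100a9 was -0.41. The log2 difference between S100a9 and S100a8 was -0.40, 1.05 and 0.80 in fl/fl hearts and 0.61, 0.59 and 0.36 in cKO hearts (exact permutation test, two-sided p = 1). The distance of their patterns was 0.45, against 0.70 to 1.02 between either of them and the stromal genes. Among genes with a mean of at least 10 CPM the nearest to S100a9 were Fhl1 at 0.40, Xirp2 at 0.43 and Rcan1 at 0.45. These were not close in pattern, as the nearest gene to Anxa2 was at 0.043 and that to S100a1 at 0.049. S100a9 had only 7 to 43 counts per library.

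Of 12 neutrophil markers, 2 (Csf3r and Lcn2) passed the filter on low counts, and the other 10 had at most 9 counts in any library. Of these, Ly6g, Camp, Mpo and Elane, which define neutrophils and their granules, had at most 1 count in any library. Csf3r, the receptor for granulocyte colony-stimulating factor, had 40, 162 and 55 counts in fl/fl hearts and 55, 52 and 78 counts in cKO hearts. Lcn2 had 15, 32 and 18 against 41, 21 and 34 counts. In Zeb2 fl/fl replicate 2, the library richest in macrophage markers, S100a8 was at 0.894 and S100a9 at 1.39 times the mean of the others. The window upstream of S100a9 is shown because it holds CACCTG, the full E-box that ZEB2 is known to bind, at position -53. This sequence occurs on either strand in 17.2% of 32851 windows, and in 1 of the 9 genes with an entry. The stretch is the minus strand of chr3:90695722-90695971, with CACCT in capitals.
S100a9: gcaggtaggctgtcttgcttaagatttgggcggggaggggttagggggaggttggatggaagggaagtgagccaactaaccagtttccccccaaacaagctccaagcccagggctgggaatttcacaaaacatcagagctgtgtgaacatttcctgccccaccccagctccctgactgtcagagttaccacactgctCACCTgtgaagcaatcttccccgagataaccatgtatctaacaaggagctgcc

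By level per length, the genes of the set ran from S100a1 at a mean of 264 RPKM over the 6 libraries through Anxa5 at 37.9, S100a10 at 17.8, Anxa2 at 13.6, S100a6 at 12.97, Anxa1 at 10.02 and S100a4 at 7.74 RPKM to S100a11 at 2.76, S100a9 at 1.03 and S100a8 at 0.505 RPKM. S100a1 lay above Anxa5, and Anxa5 above S100a10, in 6 of 6 libraries and without overlap for S100a1. From Anxa5 downwards the ranges of neighbouring genes over the libraries overlapped, and Anxa2 was above S100a6 in 4 of 6 libraries. With the length of the principal transcript in place of all annotated exons, Anxa2 was at 35.1, S100a10 at 31.6 and S100a6 at 24.3 RPKM, so the order of Anxa2 and S100a10 depends on the length used. S100a1 made up between 66.5% (Zeb2 fl/fl replicate 2) and 85.3% (Zeb2 cKO replicate 1) of the summed RPKM of 16 S100 genes.

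**Figure D5:**
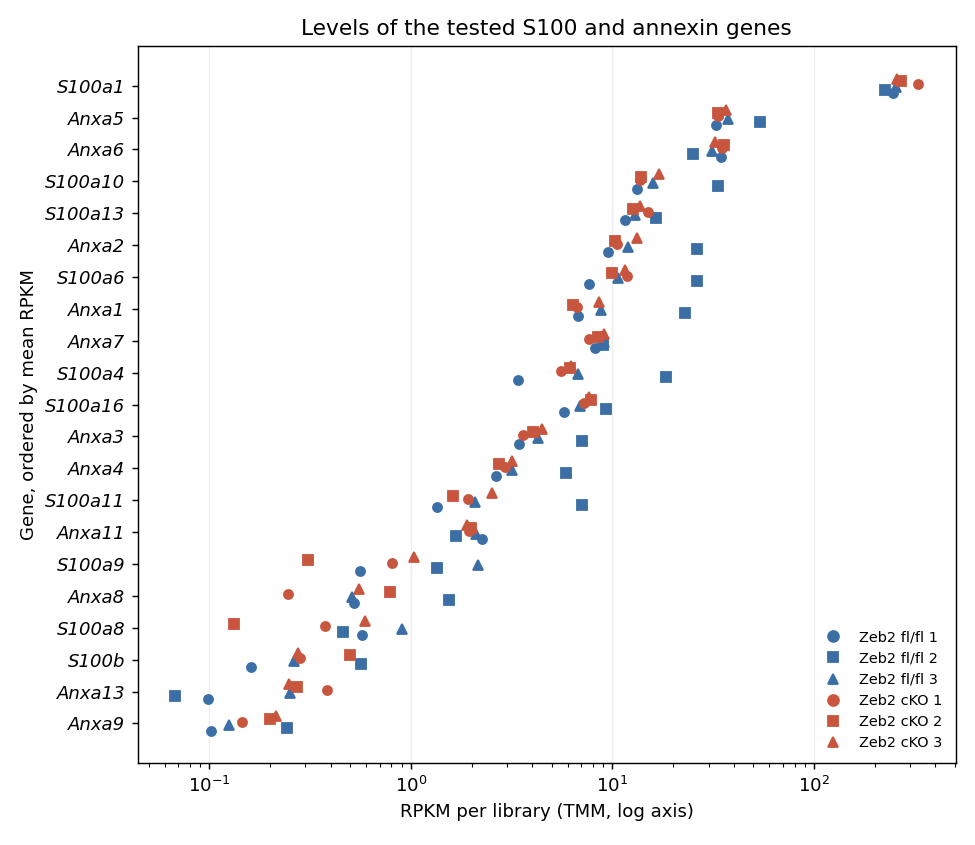
RPKM on a log axis for the 21 S100 and annexin genes that were tested, ordered by mean, with 1 symbol per library. S100a1 lies apart at the top, above 225 RPKM in every library, and Zeb2 fl/fl replicate 2 (blue square) lies to the right of the other libraries for the stromal genes and to their left for Anxa6.

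The remaining family members were 9 S100 and 9 annexin genes, of which 3 and 8 were tested. An adjusted p under 0.05 was reached by 0 of these 11 genes, and an unadjusted one also by 0, against 0% and 1.9% of all tested genes. Among the annexins, Anxa3 and Anxa4 shared the pattern of the stromal genes, with 25.6 and 27.3 CPM in Zeb2 fl/fl replicate 2 against 12.5 to 16.2 and 12.3 to 14.8 CPM in the other libraries. Parts of Anxa4 are nearly identical to other transcripts, so its count is less certain. Anxa6, the double-length annexin that is abundant in cardiomyocytes, was at 101, 73.8 and 91.0 CPM in fl/fl hearts and at 102, 104 and 94.6 CPM in cKO hearts. It was thus lowest in Zeb2 fl/fl replicate 2, with a log2 fold change of 0.18 ± 0.15, and 0.066 ± 0.10 without that library. Anxa7 differed little between libraries, from 46.0 to 54.5 CPM.

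Anxa13, an annexin of epithelia, had the smallest p of the 21 tested S100 and annexin genes. It had 5, 4 and 13 counts in fl/fl hearts and 26, 16 and 18 counts in cKO hearts. Its gene entry is annotated as a processed transcript and not as protein-coding. Its groups overlapped narrowly in CPM, and its log2 fold change was 1.13 ± 0.50 (edgeR, unadjusted p = 0.0605 and adjusted p = 0.957). S100a16, found in many tissues, was at 9.31, 14.9 and 11.2 CPM in fl/fl hearts and at 11.7, 12.6 and 12.4 CPM in cKO hearts. S100b, a protein of Schwann cells and other glia, was at 0.239 to 0.843 CPM. S100a5 and S100z had 0 counts in every library, and S100a3, S100a14, S100g and Anxa10 had at most 4.

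Of 26 genes for partners, receptors and targets of these proteins, 23 were tested, 15 with a log2 fold change below 0 (51.4% of all tested genes) and 8 above, and their median was -0.10. Without Zeb2 fl/fl replicate 2, 13 were below 0 and 10 above, with a median of -0.015. An adjusted p under 0.05 was reached by 0 of them, and an unadjusted one by 1 of them, against 1.9% of all tested genes. Plat, the tissue plasminogen activator, was at 18.5, 34.0 and 20.6 CPM against 15.5, 18.3 and 21.6 CPM. Ahnak, a large scaffold that binds ANXA2 and S100A10, was at 1048, 1458 and 1015 CPM against 1008, 1094 and 1018 CPM, and was highest in Zeb2 fl/fl replicate 2.

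Among receptors, Tlr4, which senses calprotectin, was at 27.0, 49.9 and 42.1 CPM in fl/fl hearts and at 31.3, 24.4 and 34.5 CPM in cKO hearts, a log2 fold change of -0.40 ± 0.25, and -0.20 ± 0.21 without Zeb2 fl/fl replicate 2. Ager, Fpr1 and Fpr2 were removed by the filter on low counts. Fpr1 and Fpr2, the formyl peptide receptors, were each at or below 0.364 CPM in every library. Of the S100A1 partners, Ryr2 was at 1825, 624 and 1606 CPM in fl/fl hearts and at 1847, 1464 and 1699 CPM in cKO hearts. Its log2 fold change was 0.31 ± 0.40 with all libraries and -0.036 ± 0.15 without Zeb2 fl/fl replicate 2. Atp2a2, the calcium pump, was likewise lowest in Zeb2 fl/fl replicate 2, with a log2 fold change of 0.18 ± 0.37 that was -0.12 ± 0.14 without it. The genes nearest in pattern to S100a1 were Adh5 at a distance of 0.049, Prelid3b at 0.052 and Mrps17 at 0.054, and none of the 15 cardiomyocyte markers was among these 3.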

How the data were processed

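RNA from heart tissue in 6 samples was depleted of ribosomal RNA and sequenced as stranded single-end libraries. Alignment and counting on Gencode M4 (GRCm38) used the STAR workflow, and the values deposited by the authors are raw counts per gene, 1 column per library. How strand and multiply mapped reads were treated is not given in the sources used here. Samples were grouped by their titles.

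Gene symbols and exon lengths came from Gencode M21 (GRCm38) by gene identifier, with 36345 of 38293 matched. Genes were filtered with filterByExpr, scaled with TMM and tested with glmQLFit and glmQLFTest in edgeR 4.0.16 (R 4.3.3), with genotype as the only factor. DESeq2 1.42.0 was an alternative. Log2 CPM used a prior count of 2. Ratios of genes were compared with exact permutation tests over samples. BLAST 2.17.0 was used to look for near-identical stretches among annotated transcripts. Upstream sequences are from RefSeq (GRCm38.p6). The study's methods describe samples in general as biological replicates, and the labels do not name the animals.

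The genes, marker lists and tests were chosen with earlier results of these data known. Named genes were Zeb2, the 10 genes, other family members, partners, up to 3 markers of a list by mean CPM, and the 3 genes nearest in pattern to S100a1, Anxa2 and S100a9. Cd163 and 4 neutrophil markers were named after their values were seen. The steps were tested on simulated data for Zeb2 cKO against Zeb2 fl/fl over 15007 genes. There edgeR found 42 of 100 genes with a log2 change of 1 and 91 of 100 with a log2 change of 2. It also called 8 of 14807 unchanged genes. DESeq2 found 67 and 97 of 100, and called 43 of 14807 unchanged genes. Recovery of a log2 change smaller in size than 1 was not tested. The fitted changes of the 10 genes were all smaller than that, from -0.90 (S100a9) to 0.24 (S100a1). Alternatives covered scaling, the filter, the test, dispersions, the replicate number and leaving out each library.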

Additional observations from a re-analysis of the deposited data

How the results depend on the processing

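Every edgeR setting run gave 0 genes below the adjusted threshold of 0.05, beside 122 to 1134 with an unadjusted p under 0.05, while DESeq2 gave 2. Among the 10 genes it was 0 in all 13 settings. Without Zeb2 fl/fl replicate 1, 3 of the 10 (Anxa1, S100a4 and S100a9) had an unadjusted p under 0.05 and an adjusted p of 0.596, where 1134 of 15075 genes (7.52%) had such an unadjusted p. Under the 7 settings that keep all libraries, all 10 genes kept their direction. With the replicate number as a block, the median of the 7 stromal genes was -0.35, the values of S100a4 (-0.35), S100a6 (-0.21) and S100a11 (-0.46) moved over 1.5 times towards 0, and no call changed. Deviations of same-numbered libraries correlated at 0.088, -0.14 and -0.087, and those of different-numbered libraries at -0.26 to 0.24. With 3 libraries per group these values cannot decide whether same-numbered libraries are paired.

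Leaving out 1 library at a time moved the log2 fold change from -1.07 to 0.23 for S100a4, -0.73 to 0.29 for S100a6, -0.73 to 0.033 for S100a10, -1.18 to 0.24 for S100a11 and -0.75 to 0.081 for Anxa2, where the upper end in each is without Zeb2 fl/fl replicate 2. It ranged from -1.14 to -0.10 for Anxa1, -0.40 to -0.018 for Anxa5, -1.31 to -0.40 for S100a8, -1.26 to -0.41 for S100a9 and 0.13 to 0.31 for S100a1. The median of the stromal genes ranged from -0.75 to 0.081. Differences between genes ranged from -0.21 to 0.27 for S100a1 relative to cardiomyocyte markers, -0.40 to 0.32 for S100a9 to S100a8 and -0.013 to 0.050 for Anxa2 to S100a10. Chosen after seeing the data, the stromal genes ranged from -0.013 to 0.14 relative to macrophage markers and 0.10 to 0.34 relative to fibroblast markers. S100a8, S100a9 and S100a11 had the fewest counts of the set, and the part of depth in their ranges was not tested.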
